A study of Mus musculus with 144 samples.

Results

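The 10 genes described here encode small calcium-binding and sugar-binding proteins: the S100 genes S100a1, S100a4, S100a6, S100a10 and S100a11, the annexins Anxa1, Anxa2 and Anxa5, and the galectins Lgals1 and Lgals3. They were taken by symbol from a table of 55364 genes, and all 10 were listed there. The samples were 144 single cells labelled as microglia, immune cells that reside in the retina. They were sorted by FACS into 1 well each from Iba1-EGFP mice on a C57BL/6 background, aged 20 to 22 months, in which EGFP marks cells of the Iba1 (Aif1) promoter. By title, 54 wells came from uncrushed retinas (treatment tag "no treatment"), 36 from retinas at day 2 after optic nerve crush and 54 from day 4. All groups carried the transgene, and the 18 day 4 wells of plate 1 bear a treatment tag of day 2. Each of the 3 plates held 48 wells, with each group in its own rows, so that plate row and group cannot be told apart. No label names an animal. Each group is therefore 1 sample, no test is possible, and values are given with their spread over wells and plates.

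S100 proteins are small EF-hand proteins that change shape on binding calcium and then grip a partner. Annexins bind phospholipid membranes in the presence of calcium, and the families meet in pairs: S100a10 with Anxa2, which assemble plasminogen at the cell surface, and S100a11 with Anxa1. Galectins bind β-galactoside sugars on glycoproteins. Lgals3 is widely used as a marker of activated, phagocytic microglia, while S100a8 and S100a9 are the abundant cytosolic S100 proteins of neutrophils.

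The 5 S100 members and Anxa5 lie on mouse chromosome 3 of the GRCm38 build. S100a4 (chr3:90603771-90606045) ends 6.836 kb before S100a6 (chr3:90612882-90624181), which ends 44.796 kb before S100a8. S100a11 (chr3:93520488-93526287) ends 28.792 kb before its neighbour among the members, S100a10. The promoters of 4 members are shown because S100a11, S100a6 and Lgals3 were found together in one set of wells and Anxa5 mostly in other wells. Each line gives the 250 bases upstream of the start annotated by RefSeq on GRCm38.p6, on the gene's own strand, with motif matches in capitals.
S100a11: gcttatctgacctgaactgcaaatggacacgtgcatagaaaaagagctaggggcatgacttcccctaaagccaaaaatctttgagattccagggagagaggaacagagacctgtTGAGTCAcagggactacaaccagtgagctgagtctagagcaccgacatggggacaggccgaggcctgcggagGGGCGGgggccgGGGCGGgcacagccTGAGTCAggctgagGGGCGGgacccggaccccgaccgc
S100a6: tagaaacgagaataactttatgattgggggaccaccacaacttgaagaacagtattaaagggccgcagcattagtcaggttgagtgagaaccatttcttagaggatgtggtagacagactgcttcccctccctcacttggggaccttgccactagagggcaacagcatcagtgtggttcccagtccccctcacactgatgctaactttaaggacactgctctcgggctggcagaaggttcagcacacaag
Lgals3: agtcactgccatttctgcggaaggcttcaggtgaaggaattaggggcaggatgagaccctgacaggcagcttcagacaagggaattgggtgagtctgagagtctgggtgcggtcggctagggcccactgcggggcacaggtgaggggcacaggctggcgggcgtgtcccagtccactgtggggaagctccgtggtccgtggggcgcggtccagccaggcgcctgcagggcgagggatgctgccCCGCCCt
Anxa5: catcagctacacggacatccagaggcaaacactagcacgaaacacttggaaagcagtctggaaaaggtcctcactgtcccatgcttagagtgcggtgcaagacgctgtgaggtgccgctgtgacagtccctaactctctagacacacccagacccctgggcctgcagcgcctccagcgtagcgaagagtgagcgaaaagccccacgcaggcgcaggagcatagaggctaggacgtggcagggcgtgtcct
These windows are chr3:93520246-93520495, chr3:90612644-90612893 and chr14:47373610-47373859 on the plus strand, and chr3:36475888-36476137 on the minus strand. The motifs searched on both strands were AP-1 (TGANTCA), C/EBP (TTGCNNAA), ETS (AGGAAGT), the GC box (GGGCGG) and the TATA box (TATAAA). Among 32851 RefSeq promoters of this length they occurred in 6.75%, 9.56%, 7.69%, 32.7% and 12.4%, in that order. S100a11 held 2 AP-1 matches and 3 GC boxes, Lgals3 held 1 GC box, and S100a6 and Anxa5 held none of the 5 motifs. RefSeq entries matched 8 of the 10 members. A match is a description of the letters and not a binding site. S100a10 and Lgals1 are named only.

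Values are given as RPM, reads per 1000000 reads assigned to genes, recovered from the deposited FPKM (the same per kilobase of gene) and the gene length. The wells fell into 56 shallow wells of 643 to 14205 reads and 88 deep wells of 60079 to 8065065 reads. In the deep wells a gene was called found at 10 reads or more. The deep wells were 39 of the 54 uncrushed wells, 25 of the 36 day 2 wells and 24 of the 54 day 4 wells, and plate 3 held 2 of the day 4 ones. Wells with S100a8 and S100a9 each at 1000 RPM or more, called S100a8/S100a9-high wells, were kept apart. They made up 1 of 39 uncrushed deep wells (2.56%, exact 95% interval 0.0649 to 13.5), 6 of 25 day 2 wells (24%, 9.36 to 45.1) and 2 of 24 day 4 wells (8.33%, 1.03 to 27). Both of these day 4 wells were on plate 1, so they are day 4 by title and day 2 by treatment tag. The intervals cover counting error only. Among the shallow wells, 5 of 15 uncrushed (33.3%), 5 of 11 day 2 (45.5%) and 9 of 30 day 4 wells (30%) also passed this limit. Those wells had 1595 to 5951 reads, so that 1000 RPM can rest on few reads there. Their summed microglia markers had a median of 13016 RPM. The 9 wells described below are the deep ones.

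The label of microglia was checked against 11 microglia markers. In the 9 S100a8/S100a9-high wells a median of 1 marker was found, and their summed level had a median of 53.8 RPM (23.4 to 6753). In the 79 other deep wells the median was 6 markers, with a summed level of 17509 RPM (161 to 52052). Of 10 neutrophil markers other than S100a8 and S100a9, the S100a8/S100a9-high wells held 3 to 6 each. Rod photoreceptor markers numbered 11 and 12 of 12 in 2 of them, 1 at day 2 and 1 at day 4, on plate 1. Whether the sorting gate would keep neutrophils out is not given in the sources used here.

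Of the 10 members, 5 belonged largely to the S100a8/S100a9-high wells. S100a11 was found in 9 of the 9, at 367 to 5729 RPM with a median of 2286. It was 2988 RPM in the uncrushed well, 367, 726, 2944, 2818, 2286 and 5729 RPM in the day 2 wells, and 2030 and 1340 RPM in the day 4 wells. In the 79 other deep wells it was found in 3, and in 2 of those at 14.8 and 20.0 RPM. The levels in the S100a8/S100a9-high wells overlapped those of the other wells through a single day 4 well at 866 RPM.

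S100a6, which binds calcium and several annexins, was found in 7 of the 9 S100a8/S100a9-high wells and in 1 of the 79 others. Its levels were 2541 RPM in the uncrushed well, 799, 844, 0, 0, 1477 and 3076 RPM at day 2, and 255 and 152 RPM at day 4. S100a4, S100a10 and Lgals1 were listed at 0 in all 9, against 2, 4 and 12 wells holding them among the 79 others. A count of 0 in 9 wells has a wide exact interval (up to 33.6% of wells), so it does not show that the genes are absent there.

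Anxa2, the partner of S100a10, was found in 6 of the 9 S100a8/S100a9-high wells and in 2 of the 79 others. It was 4297 RPM in the uncrushed well, 1.71, 655, 0, 0, 498 and 7743 RPM at day 2, and 2326 and 1172 RPM at day 4. Anxa1, a ligand of formyl peptide receptors, was found in 3 of the 9, at 3815 RPM in the uncrushed well, 2264 RPM in 1 day 2 well and 549 RPM in 1 day 4 well. Anxa5, which binds phosphatidylserine on dying cells, was found in 1 of the 9, at 485 RPM, against 24 of the 79 others. Anxa5 is thus the member with the most wells outside this set, and S100a11 the one with the most inside it.

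Lgals3 was found in 6 of the 9 S100a8/S100a9-high wells and in 2 of the 79 others. It was 2277 RPM in the uncrushed well and 1898, 0, 3559, 8391, 3282 and 2841 RPM at day 2, and it was listed at 0 in both day 4 wells. The day 2 well at 0 is the one that also held 11 rod markers. Whether the 2 days differ cannot be told from 6 wells and 2 wells.

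**Figure D1:**
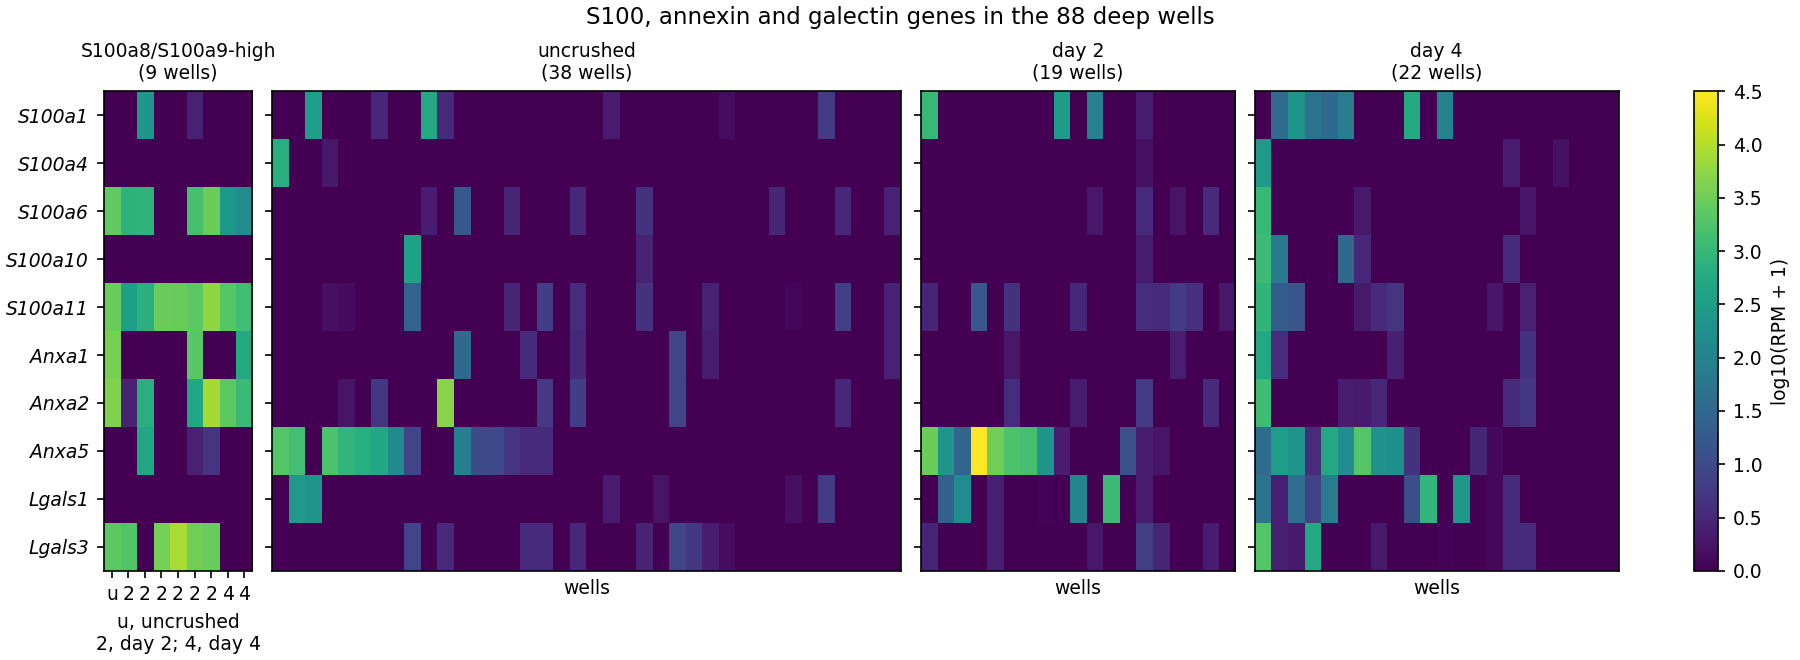
Heat map of the level of each member, as log10(RPM + 1), in the 88 deep wells, with the 9 S100a8/S100a9-high wells on the left, followed by 38 uncrushed, 19 day 2 and 22 day 4 wells. S100a11 fills all 9 wells on the left, S100a4, S100a10 and Lgals1 none of them, and Anxa5 is the row most often filled in the other wells.

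The wells holding these genes coincided. All 8 deep wells with S100a6 held S100a11, which is 66.7% of the 12 wells with S100a11. S100a6 and Anxa2 shared 7 wells, 87.5% of each. The 4 wells with Anxa1 all held S100a6, S100a11 and Anxa2. S100a11 and Lgals3 shared 7 wells, 58.3% of the S100a11 wells and 87.5% of the Lgals3 wells. Outside this group, S100a1 and Anxa5 shared 7 wells (53.8% and 28%), and Anxa5 and Lgals1 shared 7 (28% and 58.3%). The known partners S100a10 and Anxa2 shared 1 well, 25% of the 4 wells with S100a10 and 12.5% of the 8 with Anxa2.

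Over all 88 deep wells, the genes whose level was most like that of S100a11 were Lilrb4a (Spearman's rho 0.93), Clec4d (0.92) and Mmp9 (0.88), and for S100a6 they were Cd300ld (0.95), Clec4d (0.88) and Cd24a (0.86). Clec4d was found in 10 deep wells, among them all 8 with S100a6. For Lgals3 they were Acod1 (0.81), Adam8 (0.80) and Clec4d (0.77). The points share libraries, and most are at 0 for both genes, so the values describe the coincidence of a few wells. These genes were taken after the data were seen, over members found in at least 5 wells.

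**Figure D2:**
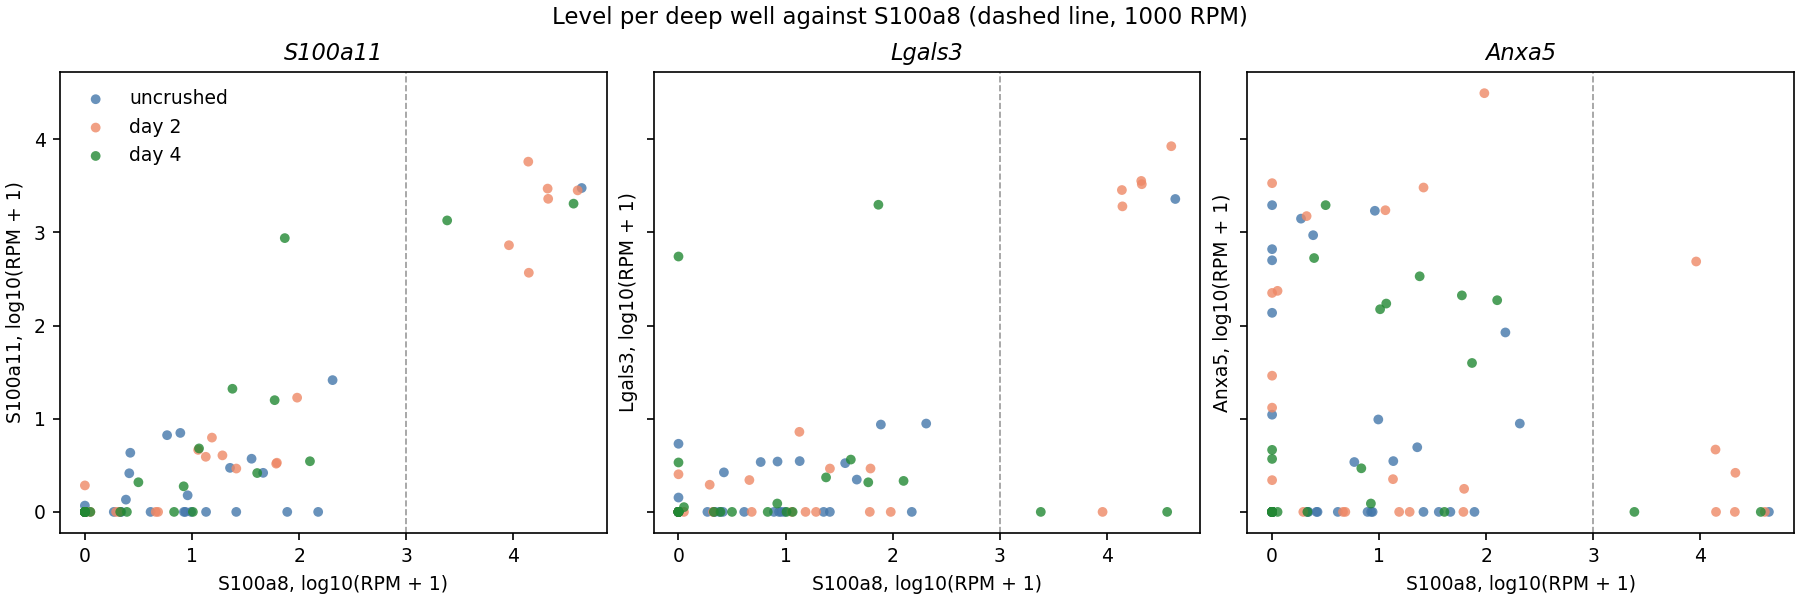
Levels of S100a11, Lgals3 and Anxa5 against S100a8, each as log10(RPM + 1), with 1 point per deep well coloured by group; the dashed line marks 1000 RPM of S100a8. The 9 wells right of the line hold S100a11 at 367 RPM or more and Lgals3 in 6 wells, while Anxa5 is found in 1 of them.

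Most members were rare in the other deep wells, of which 38 were uncrushed, 19 day 2 and 22 day 4 wells. S100a8 itself was found in 20 of these 79 wells, at 7.36 to 205 RPM. S100a8 is a gene of the rule that set wells apart, so its highest level here is bounded by that rule. Lgals1 was at 0 in all 9 S100a8/S100a9-high wells, so 205 RPM is no measure of carry-over for every member. The line of 205 RPM is used below only to describe levels. Whether a member at or below it was expressed by the well's own cell was not tested.

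S100a1, an S100 protein known best from muscle, was found in 2 of 38 uncrushed wells (5.26%, 0.644 to 17.7), 3 of 19 day 2 wells (15.8%, 3.38 to 39.6) and 7 of 22 day 4 wells (31.8%, 13.9 to 54.9). Its level was 0 in the median well of each group and reached 526 RPM in an uncrushed well, 1036 RPM in a day 2 well and 570 RPM in a day 4 well. Above 205 RPM it was found in 2 of 38 uncrushed, 2 of 19 day 2 and 2 of 22 day 4 wells. The share was thus highest at day 4 at 10 reads, while the 3 intervals overlapped.

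S100a4, linked to cell motility, was found in 1 uncrushed well at 680 RPM, in none at day 2 and in 1 day 4 well at 271 RPM. S100a10 was found in 1 uncrushed well at 386 RPM, in none at day 2 and in 3 day 4 wells at 32.8, 72.7 and 1227 RPM. S100a6 was found in 1 day 4 well at 1042 RPM. S100a11 was found in 3 day 4 wells, of which 1 was above 205 RPM. For none of these 4 genes did a group hold more than 1 well above 205 RPM.

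Anxa5 was the most widespread member. It was found in 7 of 38 uncrushed wells (18.4%, 7.74 to 34.3), 8 of 19 day 2 wells (42.1%, 20.3 to 66.5) and 9 of 22 day 4 wells (40.9%, 20.7 to 63.6). Lowest, median and highest levels were 0, 0 and 1955 RPM over uncrushed wells, 0, 1.25 and 31107 RPM over day 2 wells, and 0, 1.08 and 1956 RPM over day 4 wells. The day 2 maximum came from 1 well of 94801 reads on plate 3, and the groups overlapped over nearly their whole range. Above 205 RPM it was found in 6 of 38 uncrushed, 7 of 19 day 2 and 4 of 22 day 4 wells. After thinning each well to 50000 reads, at 3 reads, Anxa5 was found in 8 of 38 uncrushed, 7 of 19 day 2 and 7 of 22 day 4 wells.

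Anxa2 was found in 1 uncrushed well of plate 1, at 4858 RPM, which held 3 microglia, 3 rod and 2 Müller glia markers. Its Müller glia list summed to 5972 RPM, the highest of all 144 wells, and its rod list to 736 RPM. Anxa2 was also found in 1 day 4 well at 1271 RPM. Anxa1 was found in that same day 4 well, at 526 RPM. No day 2 well outside the S100a8/S100a9-high set held either gene at 10 reads, and 0 of 19 wells allows a share of up to 17.6%.

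Lgals1, a galectin of many tissues, was found in 2 of 38 uncrushed wells (5.26%, 0.644 to 17.7), 4 of 19 day 2 wells (21.1%, 6.05 to 45.6) and 6 of 22 day 4 wells (27.3%, 10.7 to 50.2). It reached 276 RPM in an uncrushed well, 1167 RPM in a day 2 well and 900 RPM in a day 4 well, with a median of 0 in each group. Above 205 RPM it was found in 2 of 38 uncrushed, 1 of 19 day 2 and 2 of 22 day 4 wells. The higher shares at day 2 and day 4 thus came largely from wells at or below that level. Thinned, it was found in 2, 3 and 2 wells, so the order of day 2 and day 4 changed with thinning. Lgals3 was found in no uncrushed or day 2 well of this set and in 2 day 4 wells, at 549 and 1975 RPM. The well at 549 RPM held 11 of 11 microglia markers and 5551434 reads. It also held 2 monocyte markers, 1 neutrophil, 1 border macrophage and 1 Müller glia marker.

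**Figure D3:**
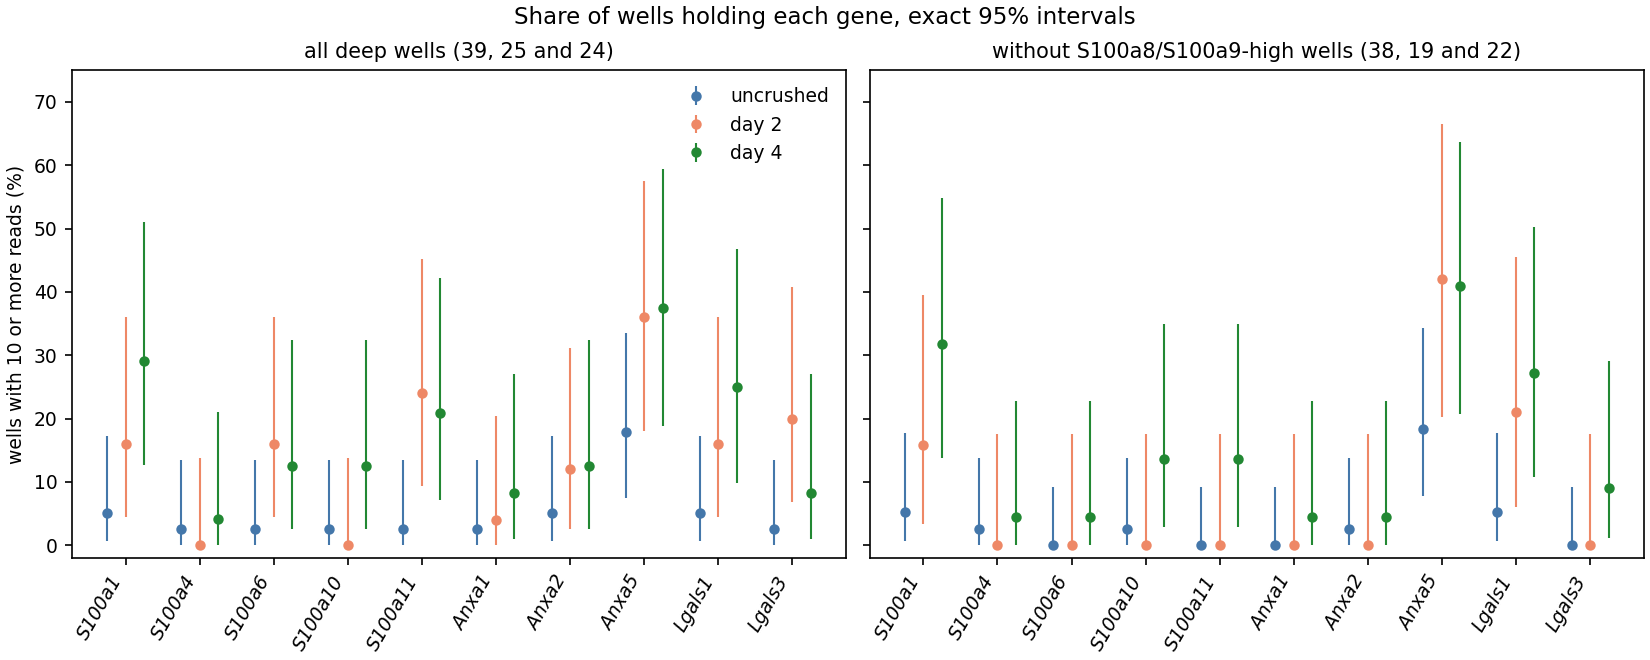
Percent of deep wells with 10 or more reads of each member in uncrushed, day 2 and day 4 wells, with exact 95% intervals, over all deep wells on the left and without the S100a8/S100a9-high wells on the right. S100a11 and Lgals3 stand at 6 and 5 of 25 day 2 wells on the left and at 0 of 19 on the right, whereas Anxa5 differs little between the panels.

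One day 4 well held 9 of the 10 members, all but S100a1. It was well F1 of plate 1, with 854387 reads, and is among the wells whose labels disagree in day. It had Lgals3 at 1975 RPM, Anxa2 at 1271, S100a10 at 1227, S100a6 at 1042, S100a11 at 866, Anxa1 at 526, S100a4 at 271, Lgals1 at 51.5 and Anxa5 at 38.6 RPM. It was the sole well holding both S100a10 and Anxa2. It held 3 of 11 microglia markers, among them Tmem119 and Csf1r, and 2 of 10 monocyte markers, Fn1 and Chil3. It also held 2 of 6 border macrophage markers, Mrc1 and Pf4, 2 of 12 neutrophil markers and 2 of 8 Müller glia markers. Most genes of each list were thus not found in it. Its monocyte list summed to 60972 RPM. The highest sum of that list was 5511 RPM over the 38 uncrushed wells and 110 RPM over the 19 day 2 wells. Over the 22 day 4 wells, F1 included, the median sum was 5.05 RPM. No other of the 79 wells held more than 4 members.

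Wells holding a member had more genes with a read at day 4 and in uncrushed retina and fewer at day 2, and the part of this in the shares was not tested beyond thinning. At day 4 the wells holding any member had a median of 7210 genes with a read, against 2478 in those holding none. The medians were 3440 and 4074 genes at day 2, and 3233 and 1970 in uncrushed retina. Over all wells of the set, the median was 2386.5 genes for uncrushed, 3880 for day 2 and 4103.5 for day 4 wells. At least 1 member was found in 11 of 38 uncrushed wells, 12 of 19 day 2 wells and 13 of 22 day 4 wells.

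**Figure D4:**
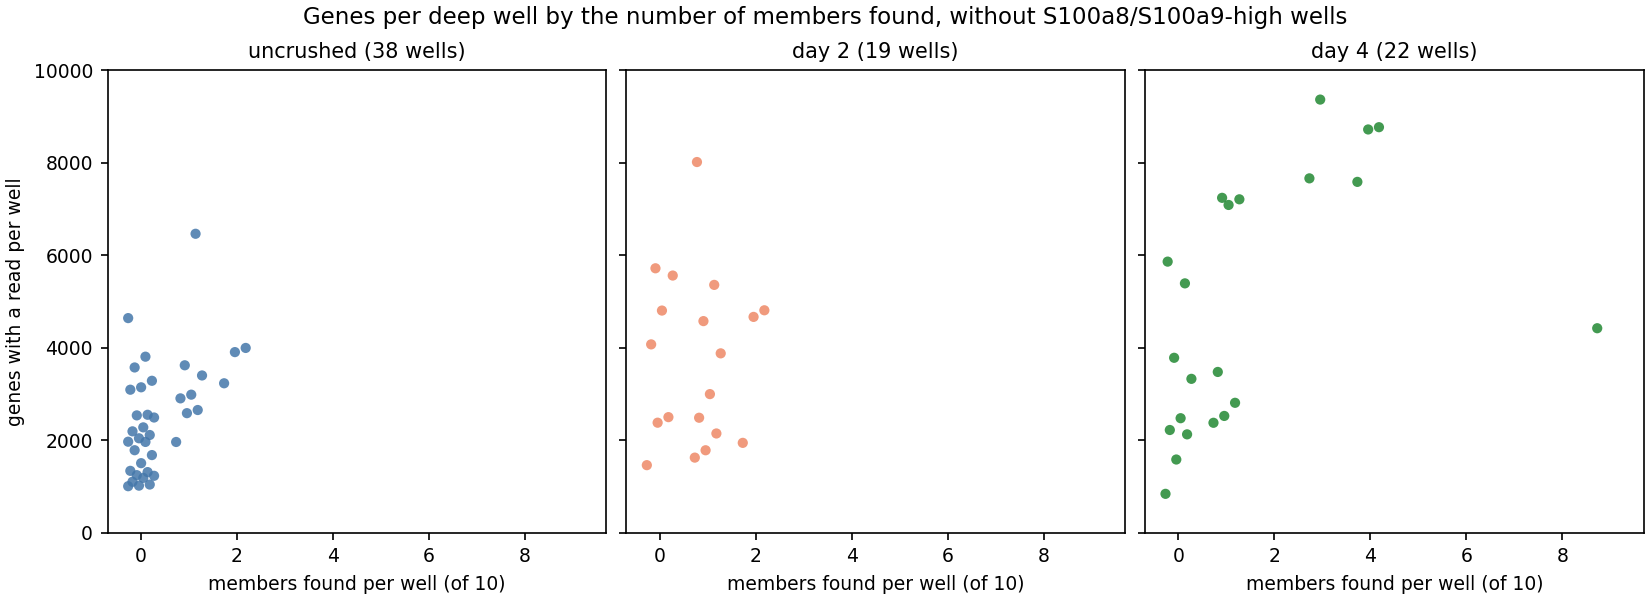
Genes with a read per well against the number of the 10 members found at 10 reads, for the 38 uncrushed, 19 day 2 and 22 day 4 deep wells without the S100a8/S100a9-high wells. The day 4 wells with 3 or 4 members lie between 7587 and 9366 genes, and the well with 9 members stands at 4423.

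Day 2 was compared with uncrushed retina by the difference of mean log2(RPM + 1) over wells, and a difference of at least 1 in size was called. Without the S100a8/S100a9-high wells, 2 of 10 members were higher and 0 lower, where 41.6% of the 4446 genes past the filter on low values were higher and 1.64% lower. The median difference was -0.064 over all 10 members, past the filter or not, and 0.79 over the 4446 genes past it. These medians are thus on unlike bases. Anxa5 averaged 4.57 ± 5.20 at day 2 and 2.36 ± 3.80 in uncrushed retina on the log2(RPM + 1) scale (SD over 19 and 38 wells). Its difference of 2.21 was 3.75, 0.86 and 2.63 within plates 1, 2 and 3. Lgals1 averaged 1.66 ± 3.12 at day 2 and 0.55 ± 1.83 in uncrushed retina, a difference of 1.11 (0.67, 2.80 and 0.47 within plates). Both differences were smaller than the SD over wells. These were the 2 members that passed the filter.

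With the S100a8/S100a9-high wells included, 4 of 10 members were higher at day 2 than in uncrushed retina, where 32.9% of 4169 genes were higher and 2.71% lower. They were S100a11 (2.54), Lgals3 (1.96), Anxa5 (1.68) and S100a6 (1.19). Lgals3 and S100a6 did not pass the filter on low values, so they are not among those 4169 genes. Without those wells the differences were 0.47 for S100a11, -0.0027 for Lgals3 and -0.13 for S100a6. The day 2 differences of S100a11, Lgals3 and S100a6 thus rested on 6 day 2 wells.

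At day 4 against uncrushed retina, 2 of 10 members were higher and 0 lower, where 56.7% of 6089 genes were higher and 1.03% lower. The 2 higher members were among the 3 that passed the filter on low values, and the 6089 genes are those past it. All 10 members had a difference above 0, with a median of 0.70. The median of the 6089 genes was 1.18, which is on another base than that of the 10 members. Lgals1 averaged 2.04 ± 3.04 at day 4 and 0.55 ± 1.83 in uncrushed retina, a difference of 1.49. S100a1 averaged 2.08 ± 3.21 at day 4 and 0.66 ± 2.01 in uncrushed retina, a difference of 1.42 (SD over 22 and 38 wells). Within plates these were 2.16, 2.09 and -1.42 for Lgals1 and 0.60, 2.62 and -0.84 for S100a1, with plate 3 resting on 2 day 4 wells. With plate as a block, the mean of these 3 values was 0.94 for Lgals1 and 0.79 for S100a1, so 0 members were higher by 1. Anxa5 stood at 0.80, with 4.15, -0.44 and -3.14 within plates. Without well F1 the members' median was 0.26, and S100a4, S100a6, Anxa1 and Anxa2 had differences of -0.19, -0.31, -0.12 and -0.28.

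With the S100a8/S100a9-high wells, 3 members were higher at day 4 than in uncrushed retina and 0 lower, where 55.8% of 5502 genes were higher and 1.13% lower. They were Lgals1 (1.33), S100a1 (1.26) and S100a11 (1.15), of which S100a11 did not pass the filter and is not among those 5502 genes. Over all 144 wells, shallow ones included, 3 members were higher at day 2 and 1 at day 4 against uncrushed retina, and 0 lower. Of the genes past the filter 15.4% were higher and 2.02% lower at day 2, and 18.8% and 1.67% at day 4. In the shallow wells a gene at FPKM 1 or more often rests on 1 to 3 reads: S100a11 had a median of 2.42 reads in the 18 of 56 shallow wells that held it. Those wells say little of the members' levels.

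**Figure D5:**
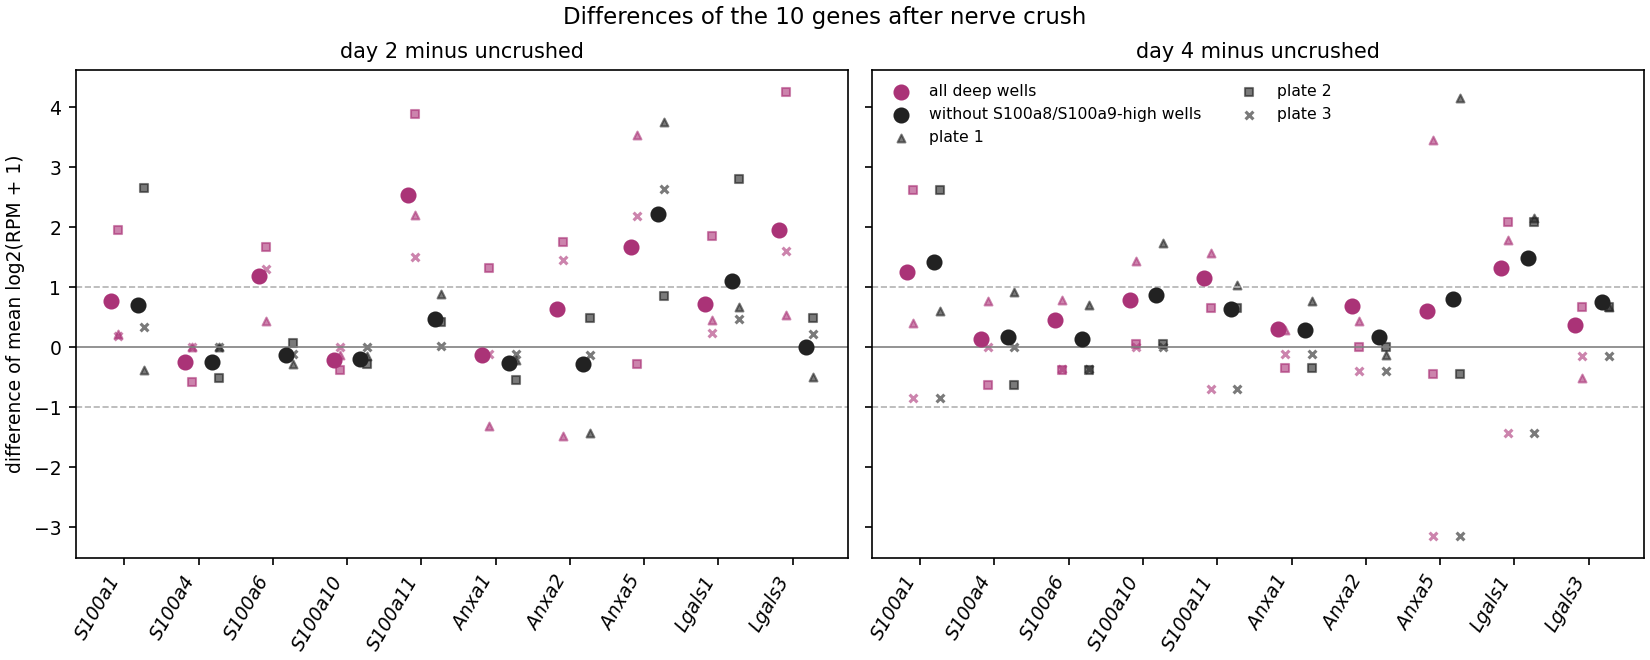
Difference of mean log2(RPM + 1) of each member for day 2 minus uncrushed and day 4 minus uncrushed, over all deep wells and without the S100a8/S100a9-high wells; small symbols are the differences within plates 1, 2 and 3, and dashed lines mark 1 and -1. S100a11, S100a6 and Lgals3 pass 1 at day 2 with the S100a8/S100a9-high wells and not without them, and plate 3 falls below 0 at day 4 for S100a1, Anxa5 and Lgals1.

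Day 4 and day 2 were also set against each other, without the S100a8/S100a9-high wells. S100a10 was higher by 1.07 and Anxa5 lower (-1.41), where 27% of 7113 genes were higher and 5.22% lower. S100a10 did not pass the filter and is not among those genes, and 0 members past it were higher. Within plates S100a10 differed by 1.88, 0.33 and 0, and Anxa5 by 0.40, -1.31 and -5.78. Without well F1 no member was higher by 1, and without plate 3 none was lower. With the S100a8/S100a9-high wells 0 members were higher and 3 lower, Lgals3 (-1.58), S100a11 (-1.39) and Anxa5 (-1.08), where 27.7% of 7637 genes were higher and 2.84% lower. This comparison shares its wells with the others, so the values stand side by side and are not independent.

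Levels of different members were compared per gene length, as FPKM in the deep wells that held each. The median was 3298 FPKM for S100a11 (29 to 11211, 12 wells), 1377 for Lgals3 (295 to 4516, 8 wells) and 690 for S100a6 (111 to 2250, 8 wells). Anxa1 and Anxa2 stood at 483 and 482 FPKM, S100a1 at 309, Anxa5 at 281 (1.52 to 17506, 25 wells), S100a10 at 189 and Lgals1 at 148. S100a4 had 464 and 1164 FPKM in its 2 wells. The order takes the S100a8/S100a9-high wells together with the others, and these made up 9 of the 12 wells with S100a11 and 1 of the 25 with Anxa5. In its 3 other wells S100a11 stood at 14.8, 20.0 and 866 RPM. The ranges of neighbours in this order overlapped throughout. For S100a11, 80.0% of the recovered values under 100 reads were not whole within 0.01 of a read, and for S100a4 3 of 4, so their counts may be shared with other features. For the other members at most 4.35% were not whole.

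Anxa5 was the one member found in at least 25% of the 79 wells. Among 1521 genes found as often, those most like it included Lcp1 (rho 0.54), an actin-bundling protein of leukocytes, and Nono (0.50), a nuclear RNA-binding protein. The wells share depth and genes per well, which differed between wells holding Anxa5 (median 4210 genes) and those without (2478).

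Of 27 other S100, annexin and galectin genes measured, 3 were higher and 0 lower at day 2 than in uncrushed retina, and the same 3 symbols were higher at day 4. Of the 27, 6 passed the filter on low values at day 2 and 7 at day 4. Among all genes past it, 41.6% were higher at day 2 and 56.7% at day 4. Lgals9, a galectin of immune cells, differed by 1.42 at day 2 and 2.95 at day 4, Anxa3 by 1.40 and 2.37, and Anxa6 by 1.18 and 2.34. S100a8 differed by 0.48 at day 2, a value bounded by the rule that set wells apart on this gene. Over all deep wells its day 2 difference was 2.95. Anxa7 differed by 0.97 at day 4. Lgals9 was found in 13 of 38 uncrushed, 10 of 19 day 2 and 15 of 22 day 4 wells, and Anxa3 in 18, 12 and 15. These 2 genes were thus found in more wells than any of the 10 members. Within plate 2 at day 2 Lgals9 and Anxa3 were lower (-1.59 and -2.24), and within plate 3 at day 4 likewise (-3.35 and -3.20).

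Of 20 partners and receptors, 3 were higher and 1 lower at day 2, and 9 were higher and 0 lower at day 4, against uncrushed retina. The largest differences at day 2 were those of Capg (2.25), an actin-capping protein, Plgrkt (2.16), a plasminogen receptor, Myh9 (1.33), a non-muscle myosin bound by S100a4, and Sri (-1.02), a calcium-binding protein that interacts with annexins. At day 4 they were those of Plgrkt (3.52), Lgals3bp (3.36), a glycoprotein bound by Lgals3, Plaur (3.07), the urokinase receptor, and Capg (2.39). Plaur was found in 0 of 38 uncrushed, 0 of 19 day 2 and 9 of 22 day 4 wells. Plgrkt was found in 2, 6 and 11 wells and was higher within all 3 plates on both days (1.79, 3.84 and 2.24 at day 2; 3.54, 3.46 and 2.99 at day 4). Fpr1 and Fpr2, the receptors of Anxa1, were found in no well of this set. These counts stand against a background of 41.6% and 56.7% of genes higher, which covers only genes past the filter on low values. Of the 20 partners and receptors, 9 passed it at day 2 and 11 at day 4, so counts out of 20 are not on that base.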

How the data were processed

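The deposited values are FPKM of 55364 genes in each of 144 wells. Per the labels' protocols, each lysed cell gave amplified cDNA, which the Nextera XT kit turned into libraries. Per the submitters' processing notes, the authors used Trim Galore 0.4.4, Trimmomatic 0.36, cutadapt 1.16, STAR 2.7.2b and featureCounts 1.6.1 with GRCm38.p6 (mm10). Whether counting used strand is not given in the sources used here. There are no molecular identifiers, so intervals and floors cover counting error only.

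FPKM times length in kilobases gave RPM, and the most frequent product in a well was taken as 1 read. Of the values under 100 reads, 40.9% were whole within 0.01, so no count test was run. Reads ran from 643 to 8065065 per well. Wells of 50000 or more reads were called deep. Groups were compared by the difference of mean log2(RPM + 1), and a difference of 1 was called. The background holds genes with 10 reads in at least 10% of the wells compared. Shares have exact Clopper-Pearson 95% intervals. The members, the lists of other family genes, partners and cell type markers, and the rules were chosen with earlier results of these data known. Named were all members, the 4 genes of the other 2 lists with the largest differences per comparison with uncrushed retina, S100a8, S100a9, and the 3 genes most like a member. Wells holding more than 1 cell were not called. Some genes that the rules would name are not reported here. Alternatives covered pseudocount, unit, summary, depth, thinning, plates, labels and cell type markers. The table used here holds 0 mitochondrial-genome genes. The formula of the differences was tried on simulated counts of genes found in more wells than most members. This tests no difference between the groups and does not cover genes as rare as most members. Scripts ran on Python 3.11.15 with scipy 1.17.1, numpy 2.4.6, matplotlib 3.10.9 and pandas 2.3.3.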

Additional observations from a re-analysis of the deposited data

How the results depend on the processing

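The counts of members past a difference of 1 rested on few wells. Only the counts given above with a share over all genes have such a background. For the other settings none is given, so their counts do not set the members apart from other genes. At day 2 minus uncrushed, 2 members were higher. The count was 1 with 10 RPM added before the log2, 1 over all wells without the S100a8/S100a9-high wells, 1 after thinning to 50000 reads and 1 without plate 2. With the S100a8/S100a9-high wells it was 4 and the members' median 0.75. As a log2 ratio of mean RPM, 4 members were lower at day 2. At day 4 minus uncrushed, 2 members were higher, against 0 with 10 RPM added, 7 as a ratio of means (1 lower, median 2.29), 4 in wells from 200000 reads and 1 after thinning. The median was 0.044 without plate 1. At day 4 minus day 2, 1 member was higher. That count was 0 with 10 RPM added, over all wells, after thinning, with the S100a8/S100a9-high wells, without plate 1, without the wells of conflicting labels, without well F1 and past the filter on low values, 2 without plate 2, and 7 as a ratio of means (median 4.15). The 1 lower member became 0 over all wells, from 200000 reads and without plate 3, and 3 with the S100a8/S100a9-high wells. With plate as a replicate block, taken as the mean of the within-plate differences, 2 members were higher at day 2, 0 at day 4 and 0 at day 4 minus day 2. The plates pair the groups by their labels alone, and the block weights the 2 day 4 wells of plate 3 as much as a full plate. No member's difference past 1 in size in the deep wells without the S100a8/S100a9-high wells changed sign under the alternatives run. Others did. At day 4 minus day 2, Lgals3 ran from -1.58 to 6.07 and S100a11 from -1.39 to 3.82. At day 2 minus uncrushed, S100a11 ran from -0.12 to 2.54. Under the alternatives, 382 differences of single members moved by less than the SD of the 3 within-plate differences and 38 by more. Of the shares, 317 stayed in their exact interval and 43 did not. The alternative of scaling to reads outside mitochondrial-genome genes was not run, since no such gene is in the table used here. Leaving out well F1 was chosen after seeing the data. The causes of these changes were not tested. The number of wells limits the shares: a count of 0 in 38 or 19 wells still allows 9.25% or 17.6% of wells.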
